A study of Mus musculus with 6 samples.

Results

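The 29 genes described here encode the enzymes of cholesterol and fatty acid synthesis, together with the proteins that control those enzymes or move sterol inside the cell. They were listed by gene symbol from their known function, with earlier results of these data known. All 29 had a row in the deposited table, out of 24402 loci in all, and *Msmo1* was taken from the row of its older symbol, *Sc4mol*. Whole lungs of C57BL/6 mouse embryos at 12.5 *dpc* were compared between wild-type littermates, called control, and Yap-flox/flox; Shh-Cre/+ embryos, called *Yap* mutant, with 3 libraries per genotype. In these mutants, Cre is made from the *Shh* locus and removes *Yap* from the lung epithelium, while the mesenchyme keeps it. The controls are labelled wild type. The authors state that this Cre contributed to lower *Shh* levels in the mutants, though it is unlikely to be the sole reason. Loss of *Yap* and the changed *Shh* allele therefore cannot be told apart here. For each locus the authors deposited 1 value per genotype, read here as FPKM, a fragment count scaled by transcript length and library size. There is therefore no spread between libraries, no depth per library and no test, and whether a difference below exceeds the spread between embryos was not tested. A difference is called past 1.2-fold when the ratio of both values is at least 1.2 in either direction, which is 0.26 on the log2 scale. The ratio is always *Yap* mutant over control.

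Cholesterol is built from acetyl-CoA through mevalonate, isoprenoid units, squalene and a series of sterols, and fatty acids are built from the same acetyl-CoA by carboxylation, chain extension and desaturation. Transcription of most of these enzymes is driven by the SREBP proteins, which SCAP carries to the Golgi for activation when sterol is scarce and which INSIG holds back when sterol is plentiful. In the embryo this synthesis supplies membranes to dividing cells, sterol for the modification of Hedgehog ligands, and, later in the lung, lipids for surfactant.

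A locus is called expressed here when the mean of its values reaches 1 FPKM, and all 29 genes were expressed. In *Yap* mutant lungs 26 of the 29 had a lower value than in control lungs and 3 had a higher one. Among all 12716 expressed loci, 51.8% were lower and 48.2% higher by any amount. Past 1.2-fold, 10 of the 29 genes (34.5%) were lower and 0 were higher, against 8.97% lower and 12.5% higher over the expressed loci. The genes lower past 1.2-fold were *Idi1*, *Fdps*, *Sqle*, *Cyp51*, *Msmo1*, *Nsdhl*, *Sc5d*, *Insig1*, *Scd1* and *Scd2*. A mean of 5 FPKM was reached by 28 of the 29 genes and by 9544 loci, of which 55.3% were lower by any amount, 6.31% were lower past 1.2-fold and 7.23% were higher past it. The differences were small in size. The median log2 ratio of the 29 genes was -0.16, with a range from -0.53 for *Sc5d* to 0.16 for *Ebp*, and the median over the expressed loci was -0.01. No gene of the 29 was past 1.5-fold, which 3.46% of these loci were in the lower and 4.61% in the higher direction. The summed level of the 29 genes was 1111 FPKM in the controls and 963 FPKM in the mutants, 13.3% lower, while the sum over all loci was 3.01% lower.

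**Figure D1:**
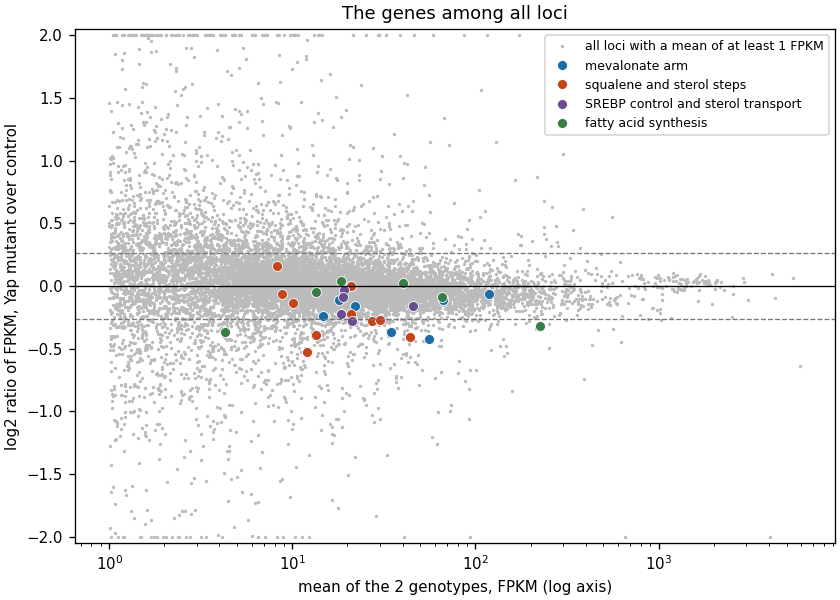
Log2 ratio of FPKM, *Yap* mutant over control, against the mean of both genotypes in FPKM on a log axis, for all expressed loci with a finite ratio (grey) and for the 29 genes (coloured by role). Dashed lines mark 1.2-fold, and 133 loci beyond 2 on the log2 scale are drawn at the edges. The 29 genes sit mostly below 0, with 10 below the lower dashed line and 0 above the upper one.

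Promoters are shown because many of these genes are known to share control by SREBP with its partner NF-Y. Whether that control has a part in the lower values was not tested. Of the 29 genes, 23 had an entry in the RefSeq promoter table on GRCm38.p6, and *Fdps*, *Fdft1*, *Sqle*, *Stard4*, *Scd1* and *Scd2* did not. The 250 bases before the start of each gene were searched on both strands. The sequences that follow belong to the 6 genes lower past 1.2-fold that have an entry, to *Hmgcs1* and to *Elovl6*. *Hmgcs1* is the only gene with a match to the sterol regulatory element. *Elovl6* had a slightly higher value in the mutants and holds none of the motifs searched. The other genes with a higher value, *Ebp* and *Fasn*, do hold the NF-Y box. *Acaca*, which had a lower value, also holds none of the motifs. The sequences are written 5′ to 3′ along the gene, ending at the base before the start. Capitals mark the NF-Y box CCAAT in either orientation and, in *Hmgcs1*, also the sterol regulatory element.
Idi1, chr13:8885356-8885605, plus strand: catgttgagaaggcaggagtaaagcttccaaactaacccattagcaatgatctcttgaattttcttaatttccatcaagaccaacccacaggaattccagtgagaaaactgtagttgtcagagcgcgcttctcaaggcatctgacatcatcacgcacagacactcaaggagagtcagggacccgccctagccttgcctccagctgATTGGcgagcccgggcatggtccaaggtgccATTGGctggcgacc
Cyp51, chr5:4104698-4104947, minus strand: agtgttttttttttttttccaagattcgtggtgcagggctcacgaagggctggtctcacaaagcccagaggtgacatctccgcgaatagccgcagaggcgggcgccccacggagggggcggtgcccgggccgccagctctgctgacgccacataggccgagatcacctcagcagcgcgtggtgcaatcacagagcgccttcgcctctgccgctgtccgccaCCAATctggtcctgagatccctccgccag
Msmo1, chr8:64733579-64733828, minus strand: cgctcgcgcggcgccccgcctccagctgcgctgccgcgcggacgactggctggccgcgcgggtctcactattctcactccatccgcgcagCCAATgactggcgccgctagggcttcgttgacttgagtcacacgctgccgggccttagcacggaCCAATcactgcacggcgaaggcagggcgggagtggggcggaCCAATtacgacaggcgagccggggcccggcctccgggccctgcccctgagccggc
Nsdhl, chrX:72918271-72918520, plus strand: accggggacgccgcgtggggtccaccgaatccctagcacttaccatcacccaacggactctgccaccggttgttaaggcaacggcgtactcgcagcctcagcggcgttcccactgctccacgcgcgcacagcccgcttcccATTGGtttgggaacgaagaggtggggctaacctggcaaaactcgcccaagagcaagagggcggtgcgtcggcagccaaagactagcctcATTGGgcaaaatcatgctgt
Sc5d, chr9:42264301-42264550, minus strand: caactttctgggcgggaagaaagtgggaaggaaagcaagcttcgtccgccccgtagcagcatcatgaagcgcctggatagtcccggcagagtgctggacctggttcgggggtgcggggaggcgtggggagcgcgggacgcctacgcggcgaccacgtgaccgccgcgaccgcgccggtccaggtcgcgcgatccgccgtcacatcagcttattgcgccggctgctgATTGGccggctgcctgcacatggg
Insig1, chr5:28071162-28071411, plus strand: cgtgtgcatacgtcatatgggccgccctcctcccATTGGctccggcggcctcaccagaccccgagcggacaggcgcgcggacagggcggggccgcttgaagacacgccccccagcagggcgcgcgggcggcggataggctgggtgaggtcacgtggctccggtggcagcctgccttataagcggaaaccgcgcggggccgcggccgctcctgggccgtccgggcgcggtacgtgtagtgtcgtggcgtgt
Hmgcs1, chr13:119690101-119690350, plus strand: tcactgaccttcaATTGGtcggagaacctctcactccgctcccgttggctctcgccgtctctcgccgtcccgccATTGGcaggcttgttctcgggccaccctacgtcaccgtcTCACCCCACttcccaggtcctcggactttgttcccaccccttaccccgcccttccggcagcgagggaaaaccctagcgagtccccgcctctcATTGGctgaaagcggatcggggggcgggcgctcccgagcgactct
Elovl6, chr3:129532136-129532385, plus strand: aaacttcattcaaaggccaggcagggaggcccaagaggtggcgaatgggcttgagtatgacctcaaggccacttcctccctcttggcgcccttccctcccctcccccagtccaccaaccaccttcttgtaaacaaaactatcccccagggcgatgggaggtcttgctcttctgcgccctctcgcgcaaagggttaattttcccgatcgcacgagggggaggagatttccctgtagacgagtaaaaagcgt

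The NF-Y box CCAAT was present in the window of 18 of 23 genes (78.3%), against 37.5% of all 27025 genes of the promoter table and 40.7% of the 9298 genes of that table that were expressed here. A gene with several starts was counted when any of them held the motif. All 6 genes lower past 1.2-fold with an entry held it, and so did 12 of the other 17. Among the genes with a higher value in the mutants, *Ebp* held 2 boxes and *Fasn* 3, while *Elovl6* held none. *Acat2*, *Scap*, *Acly* and *Acaca*, which had lower values, held none either. In *Idi1* the boxes began 45 and 14 bases before the start, in *Sc5d* 24 bases before it and in *Cyp51* 29 bases before it. The Sp1 box GGGCGG was present in 19 of 23 genes (82.6%), against 35.4% of all genes and 65.8% of those expressed here. The E-box CACGTG, which reads the same on both strands and was counted on one of them, was present in 5 of 23 (21.7%), against 6.86% and 9.99%. The sterol regulatory element, searched as TCACNCCAC, was found only in *Hmgcs1* among the 23 (4.35%), 137 to 129 bases before its start, and in 1.22% of all genes and of those expressed. The TEAD site GGAATG, the motif of the factors that YAP binds, was in 0 of 23 windows, against 14.4% of all genes and 13% of those expressed. The capitals of the NF-Y box and of the sterol regulatory element do not overlap in *Hmgcs1*. A match is a run of letters and not a site of binding, and the absence of a match says only that these letters are not in these 250 bases.

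The mevalonate arm, from acetyl-CoA to farnesyl diphosphate, was lower at each of its 7 genes, against 51.8% of the expressed loci. The arm had a median log2 ratio of -0.16 and a summed level of 352 FPKM in the controls and 310.3 FPKM in the mutants. *Hmgcs1*, which makes HMG-CoA, was the most abundant of the arm, at 122 FPKM in the controls and 117 FPKM in the mutants. Its log2 ratio of -0.06 was also the smallest difference of the arm. *Acat2*, the cytosolic thiolase that starts the pathway, had 69.5 and 64.2 FPKM (log2 ratio -0.11). The kinases *Mvk* and *Pmvk*, which add phosphate to mevalonate in turn, had 23.1 and 18.6 FPKM in the controls and 20.7 and 17.2 FPKM in the mutants, with log2 ratios of -0.16 and -0.11. *Mvd*, the decarboxylase that yields isopentenyl diphosphate, went from 16.0 to 13.5 FPKM, a log2 ratio of -0.24 that stayed within 1.2-fold.

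The largest differences of the arm were at its last steps. *Idi1*, the isomerase that sets the balance of the isoprenoid units, had 38.9 FPKM in the controls and 30.2 FPKM in the mutants (log2 ratio -0.37, 22.5% lower). *Fdps*, which joins those units into farnesyl diphosphate, the last compound shared with protein prenylation, had 64.1 and 48.0 FPKM (log2 ratio -0.42, 25.2% lower). *Idi1* lies on chromosome 13 of mm10 from 8885606 to 8892396 and *Fdps* on chromosome 3 from 89093588 to 89101967. Of all expressed loci, 6.07% had a lower log2 ratio than *Idi1* and 5.25% a lower one than *Fdps*.

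The 11 genes that turn farnesyl diphosphate into squalene and then into cholesterol had the lowest median of the 4 role groups, at a log2 ratio of -0.26. Of the 11, 10 were lower and 1 higher, and 5 (45.5%) were lower past 1.2-fold. Among the expressed loci, 51.8% were lower by any amount and 8.97% past 1.2-fold. The summed level of the 11 genes was 236 FPKM in the controls and 197 FPKM in the mutants. *Fdft1*, squalene synthase, had 23.0 and 19.2 FPKM, and its log2 ratio of -0.26 lay just inside the 1.2-fold limit, with a ratio of 0.833. *Sqle*, squalene epoxidase and a known rate-limiting step of the sterol branch, had 50.2 FPKM in the controls and 37.8 FPKM in the mutants (log2 ratio -0.41, 24.7% lower). It was the most abundant gene of the group in both genotypes. *Lss*, which closes the sterol rings to form lanosterol, had 10.6 and 9.64 FPKM (log2 ratio -0.14).

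The enzymes that trim and reshape lanosterol did not differ alike. *Cyp51*, the lanosterol demethylase, had 29.9 FPKM in the controls and 24.7 FPKM in the mutants (log2 ratio -0.28). *Msmo1* and *Nsdhl*, which act one after the other in removing methyl groups, had 32.7 and 15.3 FPKM in the controls and 27.1 and 11.7 FPKM in the mutants, with log2 ratios of -0.27 and -0.39. *Hsd17b7*, whose product completes that removal, had 8.93 and 8.54 FPKM (log2 ratio -0.06). *Tm7sf2*, a sterol reductase, had 20.8 FPKM in both genotypes, but its row is shared with *Vps51*, so its own value is uncertain.

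The sterol isomerase *Ebp* was the gene with the highest ratio of all 29, at 7.81 FPKM in the controls and 8.72 FPKM in the mutants (log2 ratio 0.16). The desaturase *Sc5d*, which acts next, was the gene with the lowest ratio, at 14.2 and 9.85 FPKM (log2 ratio -0.53, 30.6% lower). *Sc5d* lies on chromosome 9 from 42251598 to 42264300, and 3.95% of the expressed loci had a lower log2 ratio. *Dhcr7*, the reductase that completes cholesterol, had 22.5 and 19.2 FPKM (log2 ratio -0.22). *Ebp* and *Nsdhl* are the 2 of the 29 genes on the X chromosome, and they differed in opposite directions. The 4 Y-linked genes checked had at most 0.0163 FPKM in the controls and at least 4.61 FPKM in the mutants, and the part of embryo sex in these results was not tested. Without the X-linked genes, 9 of the remaining 27 were lower past 1.2-fold. Leaving those genes out does not separate embryo sex from genotype in the others.

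**Figure D2:**
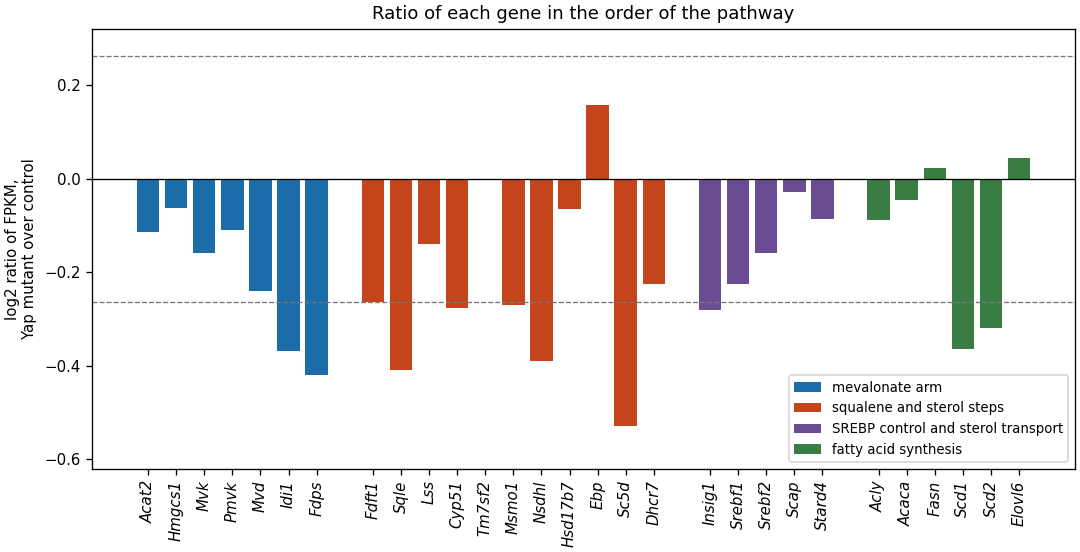
Log2 ratio of FPKM, *Yap* mutant over control, for each of the 29 genes in the order of the pathway, 1 bar per gene, coloured by role. Dashed lines mark 1.2-fold. The bars reach lowest at *Sc5d* (-0.53), *Fdps* (-0.42) and *Sqle* (-0.41), and *Ebp* (0.16), *Elovl6* (0.04) and *Fasn* (0.02) point upward.

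The genes of SREBP control and sterol transport were lower at each of 5, with a median log2 ratio of -0.16. Of the 5, 1 (20%) was past 1.2-fold. Among the expressed loci, 51.8% were lower by any amount and 8.97% past 1.2-fold. *Insig1*, which retains SCAP in the endoplasmic reticulum and is itself a well-known SREBP target, had 23.2 FPKM in the controls and 19.1 FPKM in the mutants (log2 ratio -0.28, 17.7% lower). *Srebf2*, which encodes the SREBP that acts mainly on sterol genes, had 47.9 and 42.9 FPKM (log2 ratio -0.16). *Srebf1*, whose products act mainly on fatty acid genes, had 19.9 and 17.0 FPKM (log2 ratio -0.22). The level of *Srebf2* was 2.41 times that of *Srebf1* in control and 2.52 times in *Yap* mutant lungs. *Scap*, the escort of SREBP, had 19.4 and 19.0 FPKM (log2 ratio -0.03), and *Stard4*, a carrier of sterol between membranes, had 19.5 and 18.3 FPKM (log2 ratio -0.09).

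In fatty acid synthesis the early steps and the desaturases parted. *Acly*, which makes cytosolic acetyl-CoA from citrate, had 67.8 FPKM in the controls and 63.7 FPKM in the mutants (log2 ratio -0.09). *Acaca*, the carboxylase that commits acetyl-CoA to fatty acids, had 13.7 and 13.3 FPKM (log2 ratio -0.05). *Fasn*, fatty acid synthase, had 40.1 and 40.7 FPKM (log2 ratio 0.02), and *Elovl6*, which extends its product, had 18.1 and 18.7 FPKM (log2 ratio 0.04). These 4 genes differed by less than 0.1 on the log2 scale, as did 9 of the 29.

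The stearoyl-CoA desaturases *Scd1* and *Scd2*, which place the double bond of oleate and palmitoleate, were both lower past 1.2-fold. *Scd2* was the most abundant of the 29 genes, at 249 FPKM in the controls and 199.5 FPKM in the mutants (log2 ratio -0.32, 19.8% lower). *Scd1*, its neighbour on chromosome 19, was the least abundant, at 4.82 and 3.74 FPKM (log2 ratio -0.36, 22.3% lower). The level of *Scd2* was 51.7 times that of *Scd1* in control and 53.3 times in *Yap* mutant lungs. The paralogs are similar in sequence, and how reads common to both were assigned is not given in the sources used here, so the low value of *Scd1* is uncertain. *Scd2* made up 63.3% of the summed level of the 6 fatty acid genes in control lungs. Without it that sum was 144 FPKM in the controls and 140.1 FPKM in the mutants, and with it 393 and 339.6 FPKM.

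**Figure D3:**
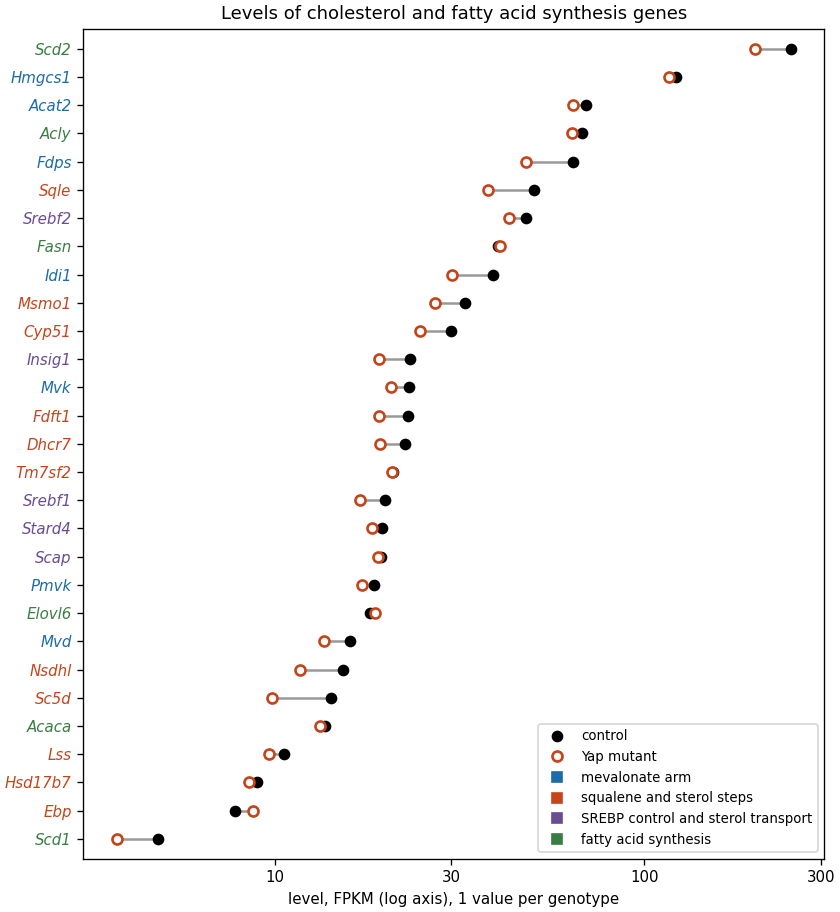
Level of each of the 29 genes in FPKM on a log axis, in control (filled) and *Yap* mutant lungs (open), with 1 value per genotype and gene names coloured by role. Genes are ordered by their control level, from *Scd2* at 249 FPKM to *Scd1* at 4.82 FPKM, and the open circle lies to the left of the filled one for 26 of the 29.

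FPKM values are per length and allow levels to be set side by side. In control lungs 25 of the 29 genes lay above the median of the expressed loci, and 4 lay in the top 10%, namely *Scd2*, *Hmgcs1*, *Acat2* and *Acly*. The 5 highest genes, with *Fdps* at the end, kept the same order in both genotypes. The values carry no error, so the order of genes with close levels is not known. The rows of *Fdft1* and *Srebf1* lie in loci that also hold *Ctsb* and *Rai1*, which have rows of their own. Likewise the locus of *Lss* also holds *4930483K19Rik*, and that of *Srebf2* holds *Mir33*. The locus of *Cyp51* runs from 4080674 to 4192282 on chromosome 5, while its RefSeq gene spans 4080674 to 4104697.

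The other genes of these pathways, from lists that share no gene with the 29, are given next. The counts and medians of the first 2 lists cover the genes reported here and not the whole of either list. Of 6 other sterol and isoprenoid enzymes, 5 were expressed, and 3 of those were lower and 2 higher, with a median log2 ratio of -0.03. *Lbr*, which encodes a sterol reductase of the nuclear envelope, had 35.9 FPKM in the controls and 29.4 FPKM in the mutants (log2 ratio -0.29). It was the one gene of these 5 past 1.2-fold. Of these 5 genes 60% were lower by any amount and 20% lower past 1.2-fold, against 51.8% and 8.97% of the expressed loci.

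Among 12 further genes of the SREBP machinery and its targets, 6 were lower and 6 higher, against 51.8% and 48.2% of the expressed loci. The median log2 ratio of the 12 was 0.00. *Lpin1*, a phosphatidate phosphatase, was the one gene of these 12 past 1.2-fold. It was higher in the mutants but near the minimum level, at 0.986 and 1.23 FPKM. That is 8.33% of the 12, against 12.5% of the expressed loci higher past 1.2-fold. *Insig2*, the relative of *Insig1*, had 8.87 and 8.50 FPKM (log2 ratio -0.06).

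On the side of sterol efflux and storage, 8 of 10 genes were expressed, of which 6 were higher and 2 lower, with a median log2 ratio of 0.16. Of all expressed loci, 48.2% were higher by any amount. Past 1.2-fold, 3 of the 8 (37.5%) were higher and 1 (12.5%) was lower, against 12.5% and 8.97% of the expressed loci. *Apoe*, the apolipoprotein that carries cholesterol out of cells, had 80.0 FPKM in the controls and 178 FPKM in the mutants (log2 ratio 1.15). *Soat1*, which esterifies cholesterol for storage, had 14.5 and 21.0 FPKM (log2 ratio 0.54), and *Nr1h3*, which encodes the sterol-sensing receptor LXR alpha, had 2.02 and 3.21 FPKM (log2 ratio 0.67). *Lcat* had a log2 ratio of -0.30, but its row is shared with *Slc12a4*. *Apoe* is also made by macrophages, whose 8 listed markers summed to 44.8 FPKM in the controls and 49.4 FPKM in the mutants. The listed liver markers summed to 14.7 and 61.2 FPKM. The part of macrophages or of liver cells in the value of *Apoe* was not tested.

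Of 28 other enzymes of fatty acid synthesis, activation and desaturation, 22 were expressed, of which 3 were lower (13.6%) and 4 higher (18.2%) past 1.2-fold, with a median log2 ratio of 0.01. These shares lie near the 8.97% and 12.5% of all expressed loci, and the values of single genes are given as a description. The lower ones were *Fads2*, a desaturase of polyunsaturated fatty acids, at 73.9 FPKM in the controls and 58.1 FPKM in the mutants (log2 ratio -0.35), *Mid1ip1*, an activator of acetyl-CoA carboxylase (log2 ratio -0.53), and *Acsl5*, an acyl-CoA synthetase (log2 ratio -0.39). The higher ones were *Acsl4*, another acyl-CoA synthetase, at 7.53 and 18.7 FPKM (log2 ratio 1.31), *Acss2*, which makes acetyl-CoA from acetate (log2 ratio 0.83), *Acacb*, the carboxylase found at mitochondria (log2 ratio 0.75), and *Elovl7*, an elongase near the minimum level (log2 ratio 0.39).

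**Figure D4:**
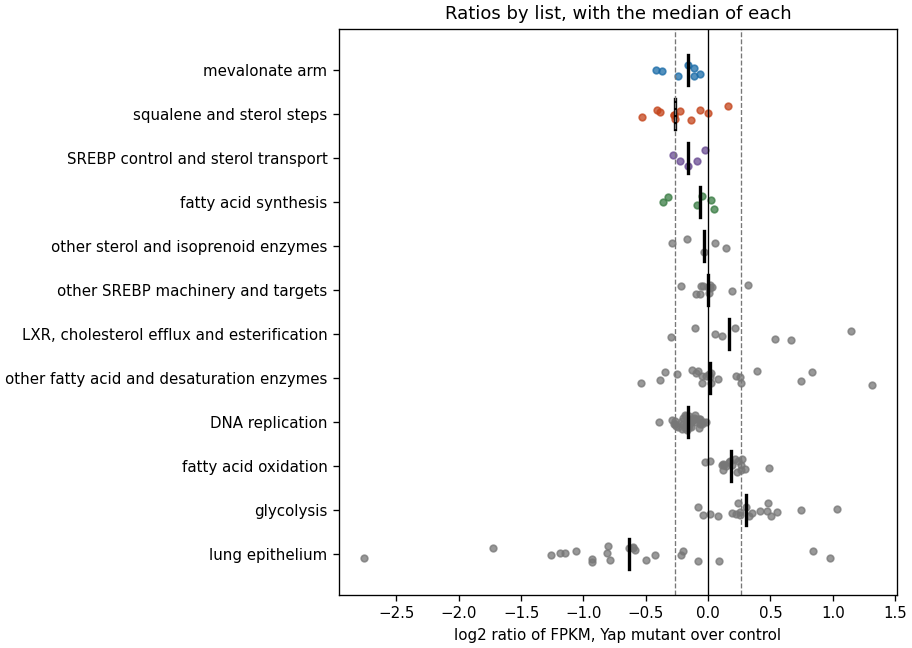
Log2 ratio of FPKM, *Yap* mutant over control, for each expressed gene (points, spread vertically for clarity), by list, with the median of each list as a black line and 1.2-fold as dashed lines. Of the marker lists, the lung epithelium alone is drawn. Among the 12 lists drawn, the medians run from -0.63 for the lung epithelium and -0.26 for the squalene and sterol steps to 0.30 for glycolysis.

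Whole-lung RNA holds many cell types, and the values of their markers differed between the genotypes. *Yap1* itself had 76.1 FPKM in the controls and 65.6 FPKM in the mutants. The lung marker *Nkx2-1* was present in both, at 61.9 and 35.9 FPKM. Of the 24 epithelial markers, 23 were expressed, and 17 of these were lower and 2 were higher past 1.2-fold. Over all expressed loci, 8.97% were lower and 12.5% higher past that limit. The median log2 ratio of the 23 markers was -0.63. The summed level of the list was 840 FPKM in the controls and 721 FPKM in the mutants. That sum includes the 2 markers that were higher past 1.2-fold, *Id2* (118 and 211 FPKM) and *Sftpc* (28.4 and 55.8 FPKM). In bulk RNA, fewer cells of a type and less RNA per cell cannot be told apart, and the part of the epithelium in the lower values of the 29 genes was not tested. Other marker lists were lower too. Of 7 smooth muscle markers, 6 were lower and 1 was higher past 1.2-fold, with a median log2 ratio of -1.06 and a sum of 304 FPKM in the controls and 162 FPKM in the mutants. Of the 7 expressed markers of neurons and glia, 6 were lower past 1.2-fold, with a median of -0.53 and a sum over the whole list of 33.8 and 23.8 FPKM. The 17 mesenchymal markers, which have 18 rows because *Tcf21* has 2, moved both ways. The median log2 ratio of these rows was 0.08. Past 1.2-fold, 5 (27.8%) were lower and 3 (16.7%) higher, against 8.97% and 12.5% of the expressed loci. The lowest ratio was that of *Foxf1*, at 83.5 FPKM in the controls and 41.6 FPKM in the mutants, and the highest that of *Fgf10*, at 10.4 and 26.6 FPKM. The sums over the mesenchymal list, of 1801 and 1802 FPKM, rest mostly on the abundant *Col3a1*, *Vim* and *Col1a2*. The part of these cell types in the lower values of the 29 genes was not tested.

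Other lists were higher in the mutants. Cardiac muscle markers were higher past 1.2-fold at 7 of 7 expressed genes, against 12.5% of all expressed loci. The sum over the whole list of 9 cardiac markers was 99.1 FPKM in the controls and 670.2 FPKM in the mutants. The liver is a site of strong lipid synthesis, and 5 of its 14 markers were expressed, with a median log2 ratio of 1.96 and a sum over the whole list of 14.7 and 61.2 FPKM. The liver markers *Afp* (5.42 and 22.3 FPKM), *Trf* (4.92 and 19.2 FPKM), *Ttr* (0.492 and 13.5 FPKM) and *Apoa1* (1.27 and 3.65 FPKM) were higher past 1.5-fold, and *Alb* had 1.28 and 1.14 FPKM. Of all expressed loci, 4.61% were higher past 1.5-fold. Of 8 fat cell markers, *Lpl* (12.2 and 17.2 FPKM) and *Fabp4* (1.72 and 1.80 FPKM) were expressed, and the list summed to 14.2 and 19.4 FPKM. Markers of steroid-making cells summed to 1.41 and 1.45 FPKM. The part of these cell types in the values of the 29 genes was not tested.

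The 39 genes of DNA replication, which growing cells also need, were lower at 39 of 39, against 51.8% of the expressed loci, with a median log2 ratio of -0.16. Past 1.2-fold 5 of them (12.8%) were lower, against 8.97% of the expressed loci. The genes of lipid synthesis had the same median of -0.16, with 10 of 29 (34.5%) lower past 1.2-fold. The difference between these lists was not tested.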

How the data were processed

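RNA from whole lungs at 12.5 *dpc* was sequenced by the authors as stranded paired-end libraries, 3 per genotype, and aligned and compared on the Maverix platform. The submitters' processing notes name TopHat, Cuffdiff and mm10. The counting settings and the annotation were not stated in any source read here. The authors deposited 1 FPKM value per genotype for 24402 loci, with the unit read from the Cuffdiff layout, and a second table of 2395 loci whose values matched the first within 1% at 2370. The deposited fold change and p-value columns hold the authors' own comparison and were not used. Libraries have no values of their own here, so depth, spread and tests could not be had.

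The ratio of FPKM, *Yap* mutant over control, was computed without a pseudocount. Loci whose mean reached 1 FPKM were counted, and 1.2-fold was the limit. Genes named are all 29 members, every pathway gene reported here past that limit, *Lbr* and *Insig2*. Of the comparison and marker lists (fatty acid oxidation, glycolysis, DNA replication and cell types), at most the 3 with the highest mean were to be named. *Nkx2-1*, *Sftpc*, *Foxf1*, *Fgf10*, *Tcf21*, *Apoa1* and *Alb* were named after their values were seen. Some genes of the lists of other sterol enzymes and of SREBP targets are not reported here, and their counts and medians leave them out. Members, lists and limits were chosen with earlier results of these data known. Older symbols were matched through RefSeq synonyms. Locus starts had 1 added, since 10 of the member loci then had both ends of the RefSeq gene and 0 did otherwise. Promoter sequences are from RefSeq (GRCm38.p6). A protein comparison was planned and not run. The fold call was tested on simulated data. Python 3.11.15, numpy 2.4.6, pandas 2.3.3 and matplotlib 3.10.9 were used.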

Additional observations from a re-analysis of the deposited data

How the results depend on the processing

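No paired analysis was possible because the deposited columns carry 1 value per genotype and no replicate number, and for the same reason no library could be left out. A total of 12 alternative settings were tried. A minimum mean of 5 FPKM, a pseudocount of 0.1 or 1 FPKM, centring on the median of the expressed loci, and leaving out shared or sex-linked loci left every count within 1.5 times and every median within 0.1, as did counting 28 genes by current symbol only, a setting chosen after seeing the data. A minimum mean of 0 FPKM and the second table's values could change nothing here, since all 29 genes were above the minimum and 0 had other values in that table. The limit mattered, since 0 genes were lower past 1.5-fold, and 17 were lower and 1 higher past 1.1-fold. Relative to the median of the lung epithelium list, 0 of the 29 genes were lower, by any amount or past 1.2-fold, and 25 were higher past 1.2-fold. Their median then was 0.47, and those of the mevalonate arm, the squalene and sterol steps, SREBP control and fatty acid synthesis were 0.47, 0.37, 0.47 and 0.57. The log2 ratios of the 23 expressed markers of the epithelial list ran from -2.76 to 0.97. Whether their median tracks the amount of epithelium was not tested. The sign turned by construction, as the list's median of -0.63 was subtracted. On that scale the log2 ratios of the 10 genes past 1.2-fold were 0.27 for *Idi1*, 0.21 for *Fdps*, 0.22 for *Sqle*, 0.36 for *Cyp51*, 0.36 for *Msmo1*, 0.24 for *Nsdhl*, 0.11 for *Sc5d*, 0.35 for *Insig1*, 0.27 for *Scd1* and 0.31 for *Scd2*.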

Other observations

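Genes of energy metabolism lay mostly in the other direction from those of lipid synthesis. Of 18 expressed genes of fatty acid oxidation, 17 were higher and 1 was lower in the mutants, with a median log2 ratio of 0.18, and 48.2% of the expressed loci were higher by any amount. Past 1.2-fold 3 of the 18 (16.7%) were higher, near the 12.5% of the expressed loci. The 3 with the highest mean were *Etfb*, *Hadh* and *Etfa*, and *Etfb*, which passes electrons from acyl-CoA dehydrogenases to the respiratory chain, had 80.0 FPKM in the controls and 98.1 FPKM in the mutants. Of 19 glycolysis genes, 17 were higher and 2 lower, with a median log2 ratio of 0.30 and 10 (52.6%) higher past 1.2-fold. The 3 with the highest mean were *Gapdh*, *Pkm* and *Ldha*. *Gapdh*, the most abundant of them, had 1234 and 1199 FPKM, *Pkm*, pyruvate kinase, had 577 and 659.6 FPKM, and *Ldha*, lactate dehydrogenase, had 451 and 661 FPKM. *Ldha* was past 1.2-fold, while *Gapdh* and *Pkm* were not. Heart muscle uses fatty acid oxidation strongly, and cardiac markers were higher in the same values, at 99.1 and 670.2 FPKM in sum. Their part in these lists was not tested.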
